A study of Mus musculus with 6 samples.

Results

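The genes described here are the protein-coding DEAD-box helicases (Ddx), DEAH-box helicases (Dhx) and heterogeneous nuclear ribonucleoproteins (Hnrnp) of mouse liver. They were taken by name: 69 of the 54532 genes in the deposited table, made up of 34 Ddx, 15 Dhx and 20 Hnrnp genes. Name matching gave 73 protein-coding genes, of which the interferon-induced Ddx58, Dhx58 and Ddx60 and the Y-linked Ddx3y were left out. RNA was sequenced from liver of G3bp1-HKO mice, which lack G3bp1 in hepatocytes only (HKO, 3 libraries), and of their litter controls G3bp1-Flox (Flox, 3 libraries). Mice of both groups received a high-fat diet (HFD) for 12 weeks from 6 weeks of age. G3BP1 is an RNA-binding protein that helps to form stress granules, and the study asked about its effect in non-alcoholic steatohepatitis, a fatty liver disease with inflammation. The sources used here do not give the Cre line that deleted the gene, the strain or the sex, and the other cells of the liver keep G3bp1 in this design. The labels leave unsaid whether every library is a different mouse, so the p-values reflect sample-to-sample spread that may be technical.

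RNA helicases of the DEAD-box and DEAH-box families use ATP to open short RNA duplexes or to strip proteins from RNA. They drive the remodelling steps of splicing, ribosome assembly, mRNA export, translation and decay, and several of them enter stress granules together with G3BP1. The hnRNPs coat nascent transcripts, mostly without ATPase activity, and set splice site choice, export and mRNA stability. Hepatocytes, which secrete large amounts of protein, use all of these steps.

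The libraries held 15804115 to 17954066 reads in genes. Values are FPKM, read numbers scaled by gene length and library size, so that 1 FPKM of a gene of 1 kb stood for 14.9 to 18.5 reads. G3bp1 stood at 8.46, 8.46 and 9.10 FPKM in Flox and at 4.66, 4.27 and 4.44 FPKM in HKO, 48.6% lower on average, and each library thus matched its label (a log2 fold change of -0.83, adjusted p = 0.11 in limma). Summed markers of hepatocytes, Alb and Apoa1 among them, lay at 48904 to 51366 FPKM in Flox and 45751 to 52518 FPKM in HKO, as the tissue label says. Flox 3 stood apart in 3 interferon-induced helicases left out here, which were far higher in it. Dhx58 was at 18.4 FPKM against 2.64 to 4.65 in the others. Ddx58 was at 14.2 against 3.50 to 4.68, and Ddx60 at 5.61 against 0.68 to 1.14. Over all genes tested it was not the lone outlier. On the first principal component, the main axis of variation (33.6% of variance), Flox 3 (14.1) lay beside HKO 2 (13.8) and HKO 3 (14.5). HKO 1 lay at -3.96, Flox 1 at -14.9 and Flox 2 at -23.5. For members whose fold change is printed below, the value without Flox 3 is given where it differs in sign or by over 1.5 times.

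Nearly all members were expressed. A gene was tested if at least 3 of the 6 libraries reached 0.5 FPKM, which 66 of the 69 members did (95.7%, against 47.3% of all 22046 protein-coding genes). The 3 members that did not were Ddx4, the germ cell helicase vasa, with 1 read in 1 library, Ddx25, a testis helicase, with 0 to 4 reads, and Ddx43, a germ cell helicase, with 0 to 1 reads. A count of 0 allows up to 3 reads per library, for counting error only. Summed over the family, the Ddx genes stood at 240 to 284 FPKM in Flox and 266 to 283 FPKM in HKO. The Dhx genes stood at 60.9 to 67.5 and 67.0 to 73.9 FPKM, and the Hnrnp genes at 311 to 333 and 309 to 328 FPKM. The 4 highest genes of each family made up 41.1 to 48.6% of the Ddx sum (Ddx5, Ddx3x, Ddx17, Ddx6), 48.4 to 54.1% of the Dhx sum (Dhx32, Dhx40, Dhx16, Dhx9) and 44.3 to 47.8% of the Hnrnp sum (Hnrnpa2b1, Hnrnpab, Hnrnpa0, Hnrnpk).

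**Figure D1:**
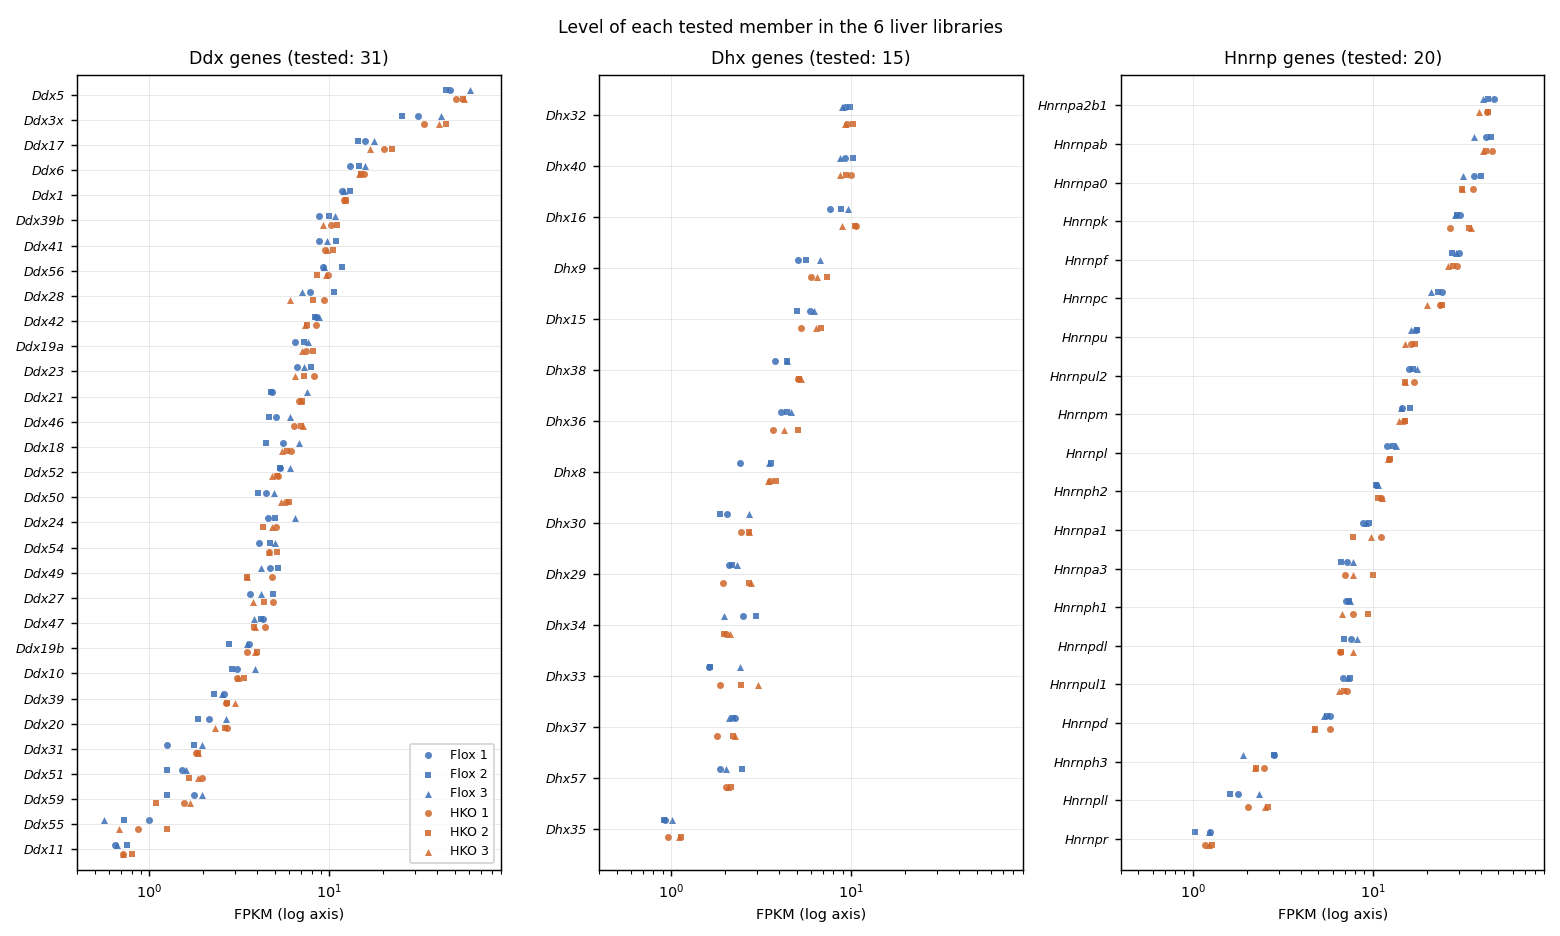
FPKM on a log axis of the 66 tested members in each of the 6 libraries, ordered by mean level within family; each point is 1 library, blue for Flox and orange for HKO. Blue and orange points overlap in 60 of the 66 genes, and levels run from 0.56 FPKM (Ddx55 in Flox 3) to 60.9 FPKM (Ddx5 in Flox 3).

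Most neighbours in the order of levels could not be told apart by their ranges, and the clear steps lay at the top in the Ddx family but lower down in the others. Ddx5, a splicing and transcription cofactor also known as p68, was the highest Ddx gene at 44.9 to 60.9 FPKM over the 6 libraries. Ddx3x, which promotes translation initiation, followed at 25.5 to 44.6 FPKM, and Ddx17, the paralog of Ddx5, at 14.6 to 22.4 FPKM, with no overlap between the ranges of these 3 genes. Only 3 of the 30 steps between neighbours in the Ddx order had ranges that did not overlap, against 2 of 14 in the Dhx and 7 of 19 in the Hnrnp order. Dhx32, Dhx40 and Dhx16 could not be ordered (means of 9.53, 9.40 and 9.38 FPKM), while all 3 lay above Dhx9, RNA helicase A, at 6.24 FPKM. Hnrnpa2b1 and Hnrnpab, both of the A/B type, were level at 42.9 and 42.4 FPKM.

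No member passed the test between HKO and Flox. All 66 had an adjusted p of 0.648 or more (limma on log2(FPKM + 1), Benjamini-Hochberg over the 11856 genes tested, threshold 0.05). Over all genes, 0% passed as higher in HKO and 0.00843% as lower. By mean, 39 members were higher and 27 lower in HKO, with log2 fold changes between -0.21 and 0.33 on the log2(FPKM + 1) scale. No member differed by more than 0.5 on this scale, and few genes did, 457 of the 11856 tested. At an unadjusted p under 0.05, 3 members were higher in HKO (Ddx46, Ddx50 and Dhx38) and 0 were lower, against 3.08% and 4.55% of all genes (7.62% in either direction). That count changed when 1 library was left out, which also lowers the power of the test. It was 0 without Flox 1 or without HKO 2, 1 without Flox 2 and 2 without HKO 3. Without HKO 1, Ddx46 and Ddx50 were higher and Ddx49 lower (-0.34) at that p, and Dhx38 was not among them. Whichever library was left out, all 3 stayed higher by mean. Their fold changes ran from 0.26 to 0.42 for Ddx46, 0.24 to 0.36 for Ddx50 and 0.19 to 0.28 for Dhx38.

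Without Flox 3, 9 members had an unadjusted p under 0.05: Ddx17, Ddx21, Ddx3x, Ddx46, Ddx50, Dhx30, Dhx38 and Hnrnpll as higher in HKO and Dhx34 as lower. Over all genes, 6.65% were then higher and 8.63% lower at that p, and the smallest adjusted p of a member was 0.256. Flox 3 was the highest Flox library in 19 of 31 tested Ddx genes (61.3%), 8 of 15 Dhx genes and 7 of 20 Hnrnp genes, against 37.5% of all genes. Its excess over the mean of Flox 1 and Flox 2, on the log2(FPKM + 1) scale, was 0.56 for Ddx21, 0.55 for Ddx3x and 0.40 for Ddx5. In 56 of the 66 members (84.8%) the range among the Flox libraries exceeded the difference between the group means, near the 81.3% of all genes tested.

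**Figure D2:**
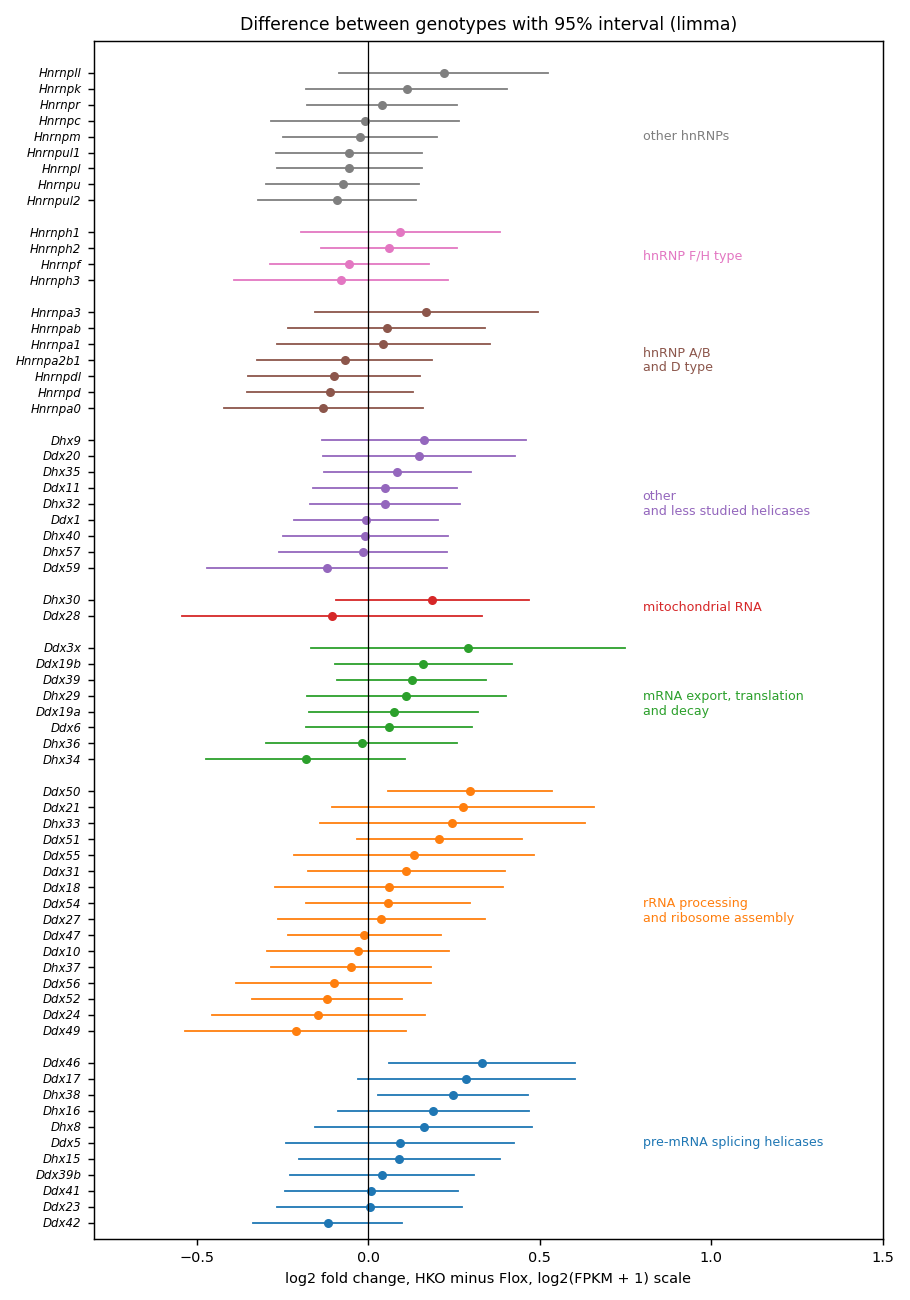
Log2 fold change, HKO minus Flox, of each tested member with its 95% interval from limma, on the log2(FPKM + 1) scale and grouped by role. Of the 66 intervals, 3 lie wholly above 0 (Ddx46, Ddx50 and Dhx38) and none lies wholly below; these are unadjusted intervals.

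Most intervals of the fold change were narrow. The 95% interval was not adjusted for the number of genes. For 61 of the 66 members (92.4%) it lay within 0.585 of 0 on the log2(FPKM + 1) scale. That held for 73.3% of all genes tested and for all 20 Hnrnp genes. The bound is the log2 of 1.5, but the pseudocount of 1 shrinks this scale at low FPKM. There it stands for more than a 1.5-fold change in FPKM. The median SD within groups was 0.131 for the members on the log2(FPKM + 1) scale and 0.158 for all genes. Members also had higher levels, with 69.7% of them above the median level of all genes tested. The part of level in the spread was not tested. The widest interval, that of Ddx3x, ran from -0.17 to 0.75.

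The helicases of pre-mRNA splicing stood mostly on the higher side. Of 11 tested, 10 were higher in HKO by mean, with a median log2 fold change of 0.09 against -0.01 over all genes, of which 48.8% were higher. None passed, and the number higher was 7 without Flox 1, 8 without HKO 2 and 10 without Flox 3. Of the 10, Ddx41 (0.009, or 0.004 without Flox 3) and Ddx23 (0.004, or 0.007 without Flox 3) barely differed. Ddx46, chr13:55635027-55681256 on the plus strand of GRCm38, is the helicase that helps to seat the branch-site snRNP on the intron. It stood at 5.09, 4.62 and 6.08 FPKM in Flox and at 6.36, 7.01 and 7.21 FPKM in HKO. All HKO libraries thus lay above all Flox libraries, with the smallest gap to Flox 3, and the means were 5.27 ± 0.745 and 6.86 ± 0.443 FPKM (SD, n = 3). This was the largest fold change of any member, 0.33 with a 95% interval from 0.06 to 0.60 (adjusted p = 0.648 in limma).

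Dhx38, chr8:109548011-109565861 on the minus strand, remodels the spliceosome before the exons are joined. It stood at 3.79, 4.42 and 4.41 FPKM in Flox and at 5.12, 5.13 and 5.26 FPKM in HKO. The groups did not overlap and the HKO libraries lay close together (means 4.20 ± 0.363 and 5.17 ± 0.077 FPKM, SD, n = 3). The fold change was 0.25 with a 95% interval from 0.03 to 0.47 (adjusted p = 0.648 in limma). Dhx16, which acts just before the first catalytic step, stood at 7.65, 8.87 and 9.59 FPKM in Flox and at 10.6, 10.6 and 8.93 FPKM in HKO. HKO 3 lay inside the Flox range.

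The cofactor pair Ddx5 and Ddx17 overlapped between groups. Ddx17 stood at 15.8, 14.6 and 17.8 FPKM in Flox and at 20.3, 22.4 and 16.8 FPKM in HKO, so that HKO 3 lay below Flox 3 (a log2 fold change of 0.29, interval -0.03 to 0.60, adjusted p = 0.667 in limma). Ddx5 stood at 47.2, 44.9 and 60.9 FPKM in Flox and at 50.7, 55.3 and 56.0 FPKM in HKO, with Flox 3 the highest of all 6 (a log2 fold change of 0.09, or 0.22 without Flox 3). The ratio of Ddx5 to Ddx17 was 2.99, 3.08 and 3.43 in Flox and 2.50, 2.47 and 3.33 in HKO, and the groups overlapped.

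**Figure D3:**
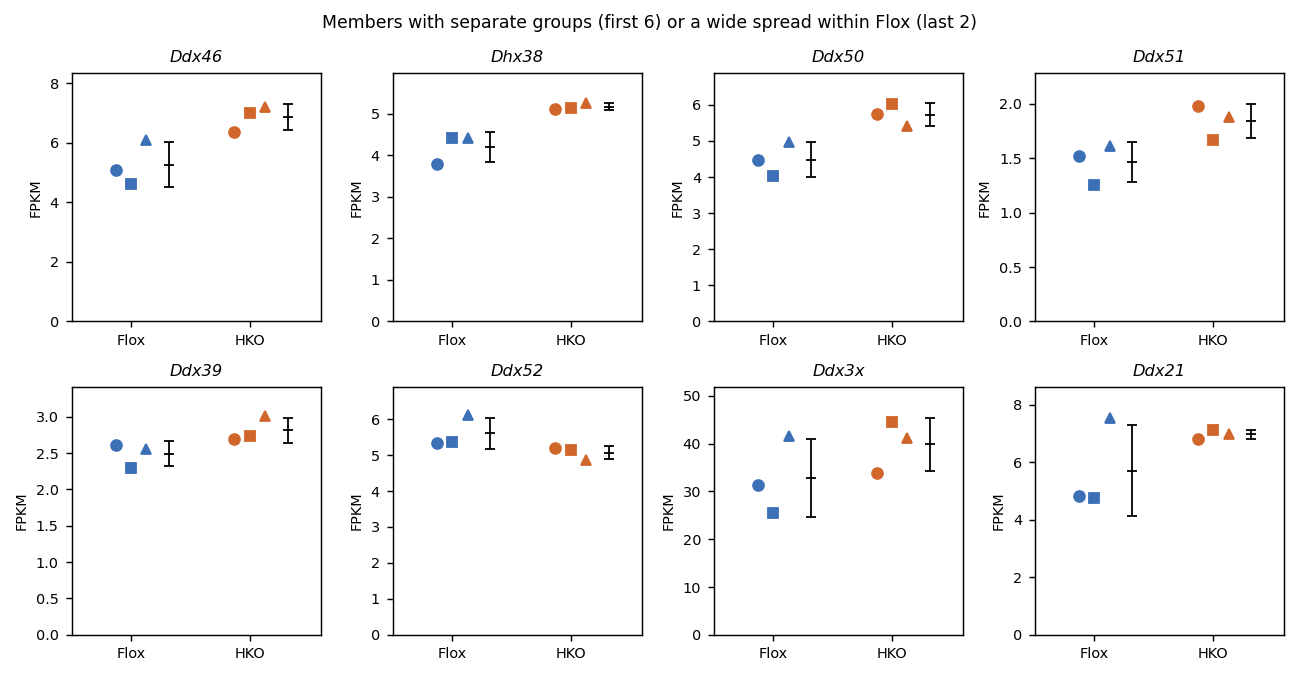
FPKM in each library for the 6 members whose groups did not overlap and for Ddx3x and Ddx21; points are libraries (circle, square and triangle for replicates 1, 2 and 3), the bars beside them mean ± SD (n = 3), and every axis starts at 0. HKO lies above Flox in Ddx46, Dhx38, Ddx50, Ddx51 and Ddx39 and below it in Ddx52, while in Ddx3x and Ddx21 the Flox 3 triangle lies among or above the HKO points.

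Helicases of ribosome assembly were split, 9 of 16 higher and 7 lower, with a median log2 fold change of 0.05. Ddx50 and Ddx21 are nucleolar paralogs that lie next to each other on chromosome 10, 13613 bases apart and on the same strand. Ddx50, chr10:62615895-62651218, stood at 4.46, 4.02 and 4.97 FPKM in Flox and at 5.75, 6.02 and 5.40 FPKM in HKO. The groups did not overlap (means 4.48 ± 0.474 and 5.72 ± 0.312 FPKM, SD, n = 3), and the fold change was 0.30 with an interval from 0.06 to 0.54 (adjusted p = 0.648 in limma). Ddx21, chr10:62580251-62602281, stood at 4.84, 4.75 and 7.54 FPKM in Flox and at 6.82, 7.13 and 6.99 FPKM in HKO. Here Flox 3 was the highest of all libraries and the other Flox libraries the lowest (a log2 fold change of 0.28, interval -0.11 to 0.66, adjusted p = 0.688 in limma). Without Flox 3 it was 0.46. The ratio of Ddx21 to Ddx50 was 1.09, 1.18 and 1.52 in Flox and 1.19, 1.18 and 1.29 in HKO.

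The promoters of this pair are shown because the genes are neighbours and share a sequence near the start. The stretches are the 250 bases before each transcription start, from RefSeq on GRCm38.p6, read 5′ to 3′ on the gene's own strand. Capitals mark CGGAAGTGACG, the longest run of bases found in both windows (11 bases), CCGGAAGT (an ETS-type site), which overlaps it in Ddx50, and CCAAT on the reverse strand, read as ATTGG.
Ddx50, chr10:62651219-62651468, minus strand: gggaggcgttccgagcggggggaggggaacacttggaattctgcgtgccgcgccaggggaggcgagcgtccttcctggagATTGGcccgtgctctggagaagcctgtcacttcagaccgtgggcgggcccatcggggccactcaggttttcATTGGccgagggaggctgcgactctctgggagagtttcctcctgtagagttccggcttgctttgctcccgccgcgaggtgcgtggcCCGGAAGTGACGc
Ddx21, chr10:62602299-62602548, minus strand: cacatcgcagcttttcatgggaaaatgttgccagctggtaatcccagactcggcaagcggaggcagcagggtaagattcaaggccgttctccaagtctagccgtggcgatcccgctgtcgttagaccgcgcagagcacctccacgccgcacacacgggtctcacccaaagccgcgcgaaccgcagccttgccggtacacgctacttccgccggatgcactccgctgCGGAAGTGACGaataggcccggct

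CGGAAGTGACG begins 12 bases before the start of Ddx50 and 24 before that of Ddx21. RefSeq held 82 promoters for 62 of the members. Searched on both strands, the run was in 3 of these (3.66%) and in 0.344% of all 32851 promoters of the same length. It was chosen from Ddx50 and Ddx21 themselves, and the only other member with it was Ddx27, also a ribosome assembly helicase, whose log2 fold change was 0.04. CCGGAAGT was in 9.76% of member promoters and 2.88% of all, CACGTG (the E-box) in 9 of 82 and 6.02%, and CCAAT in 48.8% and 33.8%. Member promoters also had a higher median GC content, 60.6% against 52.4%. These matches describe letters only.

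The other ribosome assembly helicases lay on both sides. Ddx51, which acts on large-subunit rRNA, stood at 1.52, 1.26 and 1.61 FPKM in Flox and at 1.98, 1.67 and 1.88 FPKM in HKO, without overlap (a log2 fold change of 0.21, adjusted p = 0.673 in limma). Ddx52, of the small-subunit processome, was the only tested member whose HKO libraries all lay below Flox, at 5.21, 5.14 and 4.86 FPKM against 5.35, 5.36 and 6.11. The gap between the groups was narrow and the fold change -0.12 (adjusted p = 0.732 in limma), or -0.07 without Flox 3. The untested Ddx43 had the same order at 0 to 1 reads, too few to compare. In all, 5 members lay above and 1 below without overlap, 9.09% of those tested, against 6.06% and 7.21% of all genes (13.3% in either direction).

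Ddx49 and Ddx24 are helicases of the small and large ribosomal subunit. On the log2(FPKM + 1) scale they had the most negative fold changes of the Ddx genes, -0.21 and -0.15. Without Flox 3 that of Ddx24 was -0.02. Ddx49 stood at 4.71, 5.24 and 4.19 FPKM in Flox and at 4.85, 3.52 and 3.50 FPKM in HKO, with HKO 1 inside the Flox range. It shares 40.9% of its exon length with Homer3 on the opposite strand, and the library kit does not mark strand. Ddx24 stood at 4.60, 5.03 and 6.51 FPKM in Flox and at 5.07, 4.32 and 4.80 FPKM in HKO, the highest value again in Flox 3. Dhx33 had the second largest fold change of the Dhx genes on the log2(FPKM + 1) scale, 0.24, or 0.37 without Flox 3. It stood at 1.63, 1.66 and 2.44 FPKM in Flox and at 1.87, 2.45 and 3.03 FPKM in HKO, with overlap. Its mean FPKM was 28.5% higher in HKO, against 22.9% for Dhx38. Dhx37, which releases a snoRNA from the small-subunit precursor, stood at 2.20 ± 0.086 and 2.10 ± 0.252 FPKM (SD, n = 3).

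Of the 8 helicases of mRNA export, translation and decay, 6 were higher in HKO by mean and 2 lower, with a median log2 fold change of 0.09. Ddx3x, which is also a stress granule component, stood at 31.3, 25.5 and 41.7 FPKM in Flox and at 33.8, 44.6 and 41.1 FPKM in HKO. Flox 3 lay inside the HKO range and HKO 1 just above Flox 1 (a log2 fold change of 0.29, adjusted p = 0.709 in limma). Without Flox 3 its fold change was 0.47. Reads of its Y-linked paralog Ddx3y could in part be counted as Ddx3x. Their ratio was 2.09 to 2.58 in Flox and 2.49 to 2.74 in HKO.

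Ddx6, the helicase of P bodies that represses translation and promotes decapping, was steady at 13.1, 14.7 and 15.8 FPKM in Flox and at 15.7, 15.2 and 14.6 FPKM in HKO (a log2 fold change of 0.06, or 0.12 without Flox 3). Ddx39, an mRNA export factor, stood at 2.61, 2.30 and 2.56 FPKM in Flox and at 2.69, 2.73 and 3.01 FPKM in HKO. Its groups did not overlap, but HKO 1 exceeded Flox 1 by less than the spread within Flox (a log2 fold change of 0.13, adjusted p = 0.724 in limma). It shares 18.5% of its exon length with Adgre5 on the opposite strand. Dhx34, of nonsense-mediated decay, had the most negative fold change of the Dhx genes, -0.18, from 2.51, 2.97 and 1.98 FPKM in Flox to 2.04, 1.98 and 2.14 FPKM in HKO (-0.29 without Flox 3).

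The mitochondrial helicases Ddx28 and Dhx30, which assist the mitochondrial ribosome, stood apart from each other in sign and neither passed. Ddx28 was at 7.88, 10.6 and 7.08 FPKM in Flox and at 9.35, 8.11 and 6.10 FPKM in HKO (a log2 fold change of -0.11, or -0.22 without Flox 3). Dhx30 was at 2.06, 1.88 and 2.71 FPKM in Flox and at 2.47, 2.72 and 2.73 FPKM in HKO (a log2 fold change of 0.19, or 0.29 without Flox 3). Of the 9 remaining tested helicases, 5 were higher and 4 lower. Dhx9, which unwinds double-stranded RNA and supports transcription, stood at 5.07, 5.67 and 6.78 FPKM in Flox and at 6.02, 7.41 and 6.49 FPKM in HKO (a log2 fold change of 0.16, or 0.26 without Flox 3). Dhx32 and Dhx40, less studied DEAH-box proteins, had fold changes of 0.05 and -0.01, or 0.02 and -0.06 without Flox 3.

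The hnRNP genes had the smallest median SD within groups of the 3 families, 0.107 on the log2(FPKM + 1) scale against 0.132 for Ddx and 0.141 for Dhx genes. They also had the largest share above the median level of all genes tested, 85% against 71.0% of Ddx and 46.7% of Dhx genes. Of 20 hnRNP genes tested, 8 were higher in HKO and 12 lower, the median log2 fold change was -0.04, and no gene separated the groups. Hnrnpa2b1, which binds nascent and localised transcripts, stood at 47.4, 43.7 and 40.9 FPKM in Flox and at 43.0, 43.6 and 38.9 FPKM in HKO. Hnrnpab stood at 42.9, 45.7 and 36.4 FPKM in Flox and at 46.1, 42.5 and 40.9 FPKM in HKO, and shares 13.1% of its exon length with Phykpl on the opposite strand. Hnrnpa0, a binder of AU-rich mRNAs, had the most negative fold change of the family, -0.13 with an interval from -0.42 to 0.16. It stood at 36.6, 40.1 and 31.9 FPKM in Flox and at 36.0, 31.5 and 31.2 FPKM in HKO. In all 3 of these, Flox 3 was the lowest Flox library, and without it their fold changes were -0.12 for Hnrnpa2b1 (from -0.07), -0.04 for Hnrnpab (from 0.05) and -0.22 for Hnrnpa0.

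Hnrnpd, the AU-rich element decay factor AUF1, stood at 5.79, 5.57 and 5.36 FPKM in Flox and at 5.78, 4.77 and 4.73 FPKM in HKO (a log2 fold change of -0.11). Hnrnpll, which directs alternative exons of Ptprc in lymphocytes, had the highest fold change of the family, 0.22 with an interval from -0.08 to 0.52. It stood at 1.79, 1.61 and 2.33 FPKM in Flox and at 2.02, 2.61 and 2.52 FPKM in HKO. Summed markers of T and NK cells, of which all 5 tested were higher in HKO by mean, lay at 3.18 to 5.94 FPKM in Flox and 5.58 to 7.44 FPKM in HKO, with all defining markers above 0 in some library. Their part in the level of Hnrnpll was not tested. The ratio of its paralog Hnrnpl to it was 6.72, 8.11 and 5.76 in Flox and 6.11, 4.76 and 4.81 in HKO, with overlap. Ratios were compared in this way for 10 pairs of related genes, Ddx3x with Ddx3y among them, and none separated the groups.

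**Figure D4:**
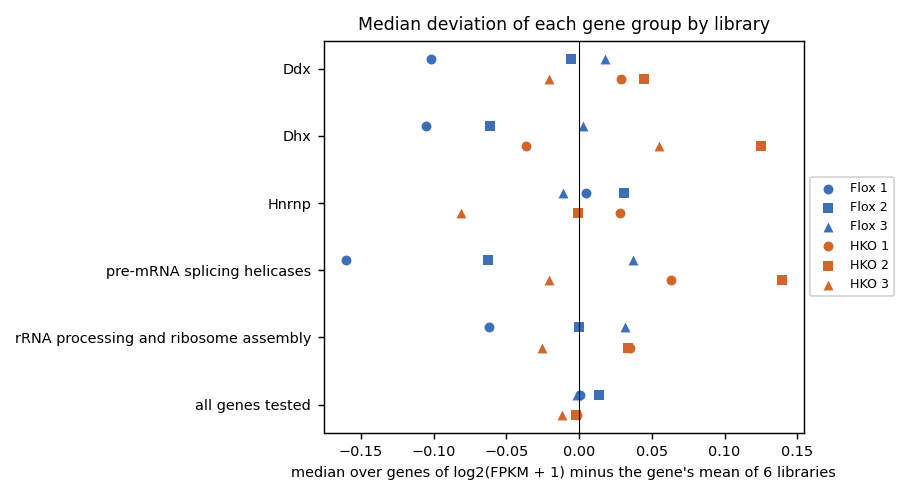
For each library, the median over genes of log2(FPKM + 1) minus the gene's mean of the 6 libraries, for the 3 families, the 2 role groups with most tested genes and all genes tested; each point is 1 library. The points of all genes lie within 0.02 of 0, the splicing helicases range from -0.16 (Flox 1) to 0.14 (HKO 2), and Flox and HKO overlap in every row.

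Library by library, the splicing helicases as a group were lowest in Flox 1 (-0.16) and highest in HKO 2 (0.14). Flox 3 (0.04) lay above HKO 3 (-0.02), so their levels did not sort by genotype. The family medians overlapped between groups in the same way. The sign of the hnRNP count depends on the scaling between libraries. After rescaling FPKM to the same sum in every library (TPM), which moved the median of all genes by 0.15, 20 of 20 hnRNP genes were higher in HKO, as were 74.5% of all genes, but only 10 lay above the median of all genes. On that scale 6 members were higher at an unadjusted p under 0.05 and 0 lower, against 10.5% and 1.24% of all genes. Scaled by total reads, 15 were higher and 9 above that median. For the Ddx genes 23 of 31 lay above that median under both scalings. Without Flox 1 only 15 of 31 Ddx genes were higher in HKO, with a median of -0.01, whereas without Flox 3 the number was 22, with a median of 0.10.

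Some members have near-identical gene copies, so their reads can be split. A copy was another gene matching 80% or more of the coding sequence at 97% identity or more, and 7 members had at least 1: Ddx5, Ddx18, Hnrnpa1, Hnrnpa3, Hnrnpf, Hnrnph2 and Hnrnpk. The copy of Ddx18 took 4.26 to 18.0% of the reads of the pair. Ddx18 itself had a log2 fold change of 0.06, or 0.19 without Flox 3. The 15 copies of Hnrnpa3 took 42.5 to 57.5% of the reads of the gene and its copies, so its own level, 7.25, 6.66 and 7.74 FPKM in Flox and 7.05, 10.1 and 7.78 FPKM in HKO, is uncertain. Hnrnpk, a KH-domain protein of poly(C) RNA, stood at 30.4, 29.3 and 28.6 FPKM in Flox and at 27.1, 34.1 and 35.1 FPKM in HKO. Its copy on chromosome 7, the processed pseudogene Gm7964, took 16.6 to 18.6% of their joint reads in Flox and 10.9 to 12.1% in HKO. Gm7964 stood at 28.4, 31.5 and 28.5 FPKM in Flox and at 17.0, 22.1 and 20.2 FPKM in HKO, a log2 fold change of -0.56 that did not pass (adjusted p = 0.58 in limma), and it was singled out after its values were seen. Hnrnpf, a splicing factor that binds G tracts, had copies with at most 2.05% of the reads and was level at 28.9 ± 1.32 and 27.8 ± 1.56 FPKM (SD, n = 3). It shares 24.8% of its exon length with 4933440N22Rik and Gm43863 on the opposite strand. In all, 8 members had over 10% of their exon length overlapped by other genes.

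Other genes of RNA processing gave no call either. Among 18 other RNA helicases, 8 were higher and 10 lower in HKO. Dqx1, a DEAH-box-like helicase whose name the family pattern does not match, stood at 3.14, 2.97 and 3.31 FPKM in Flox and at 2.24, 1.96 and 2.48 FPKM in HKO (a log2 fold change of -0.36, adjusted p = 0.591 in limma). Its difference was larger than that of any Ddx or Dhx member. Mov10, an antiviral helicase, was at 7.83 FPKM in Flox 3 and at 3.62 to 4.43 FPKM in the others. Among 24 hnRNP-type proteins outside the Hnrnp names 12 were higher and 12 lower, and Taf15 had means of 14.6 and 10.9 FPKM and Raly of 19.5 and 16.8 FPKM (Flox and HKO). Of 20 SR protein genes, including their kinases, 12 were higher, while Srsf5 (33.4 and 26.6 FPKM) and Srsf2 (21.5 and 18.7 FPKM) were lower and Srsf10 (4.05 and 4.93 FPKM, outside the naming rule) higher without overlap. Of 36 core spliceosome genes only 12 were higher, with a median log2 fold change of -0.06. Sf3b5 had means of 8.97 and 7.66 FPKM and Cdc5l of 3.89 and 4.60 FPKM. That median was 0.10 under TPM and 0.0039 scaled by total reads. Of 36 genes of snoRNPs and rRNA processing 20 were higher, with Nop56 at 2.77 and 3.63 FPKM and Utp3 at 19.2 and 15.9 FPKM. None of these genes passed in limma.

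Some cell type markers differed by mean between the groups, but no Kupffer or erythroid marker passed (adjusted p of 0.58 or more in limma). All 12 Kupffer cell markers were higher in HKO by mean, with a summed level of 151 to 278 FPKM in Flox and 227 to 370 FPKM in HKO, and Flox 3 held the highest Flox sum. All 5 erythroid markers tested were lower, with sums of 295 to 333 and 136 to 270 FPKM. No Kupffer or erythroid marker was at 0 in all libraries. In whole tissue, fewer cells of a type and less RNA per cell cannot be told apart. The part of these cells in the levels of the helicases and hnRNPs was not tested.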

How the data were processed

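RNA of 6 liver libraries (3 Flox, 3 HKO) was sequenced from 1.3 µg of total RNA with a kit that does not mark strand, per the labels' protocols. The authors deposited gene FPKM, 1 value per gene and library, and a gene length. The submitters' processing notes name GRCm38 and mm10, and the sources used here do not give the aligner, counter or annotation. FPKM times length gave whole reads within 0.02 for 100% of values, with totals of 15804115 to 17954066. The library size behind the FPKM was not this total. It was 0.97, 0.93 and 1.03 times the total in Flox and 1.06, 1.01 and 1.03 times in HKO.

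FPKM are not counts, so log2(FPKM + 1), with a pseudocount of 1, was tested in limma 3.58.1 under R 4.3.3 (trend, robust with statmod 1.5.0, two-sided), without covariates, in genes of at least 0.5 FPKM in at least 3 libraries. P-values were adjusted by Benjamini-Hochberg over the 11856 genes tested, and intervals are unadjusted. The smallest p of an exact permutation test at this size is 0.1. The members and all lists, roles and markers were chosen with earlier results of these data known. Named are members at an unadjusted p under 0.05 or without overlap between groups, the 4 highest by FPKM and the 2 with the largest fold change in each direction per family, the top gene of any role group otherwise unnamed, and up to 2 genes of smallest p per related list. Others appear as counts. Ddx18, Ddx21, Ddx23, Ddx27, Ddx41, Ddx55, Dhx30 and the genes named without Flox 3 were added after their values were seen.

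Copies were sought with blastn 2.17.0 by searching the coding sequence of each member against all GENCODE transcripts of the same build. A coding sequence was found for 69 of 69 members. Alternatives were other pseudocounts, filters, scalings, voom, a replicate block and each library left out.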

Additional observations from a re-analysis of the deposited data

How the results depend on the processing

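No member passed under any of the 14 alternatives run, and of 28 named members 17 kept their sign in all of them. The count tests named in the plan (edgeR, DESeq2 and voom with TMM) were not run, since the deposited unit is FPKM. In their place, voom with the library sizes behind the FPKM was chosen after seeing the data; it put G3bp1 past the threshold (-0.96, adjusted p = 0.037, 0.037 to 0.838 over the alternatives). Same-numbered libraries correlated in their deviations from the group means at 0.02, 0.01 and 0.07, and the other pairs at -0.10 to 0.07. With deviations taken within groups of 3, this cannot decide whether replicate numbers pair the libraries. With the replicate block 1 member kept an unadjusted p under 0.05 and 0 genes passed as lower.
Under TPM, which moved the median of all genes by 0.15, 6 members had an unadjusted p under 0.05 and 20 hnRNP genes were higher in HKO. The medians became 0.23 (Ddx), 0.26 (Dhx) and 0.13 (Hnrnp), and those of the related lists 0.11 (other helicases), 0.16 (hnRNP-type), 0.17 (SR proteins), 0.10 (core spliceosome) and 0.18 (snoRNP and rRNA processing). The sign turned for Ddx24 (0.0039), Ddx28 (0.0571), Ddx52 (0.0332), Dhx37 (0.0866), Dhx40 (0.16), Hnrnpa0 (0.0433), Hnrnpa2b1 (0.11), Hnrnpd (0.0412) and Hnrnpf (0.12). Scaled by recovered reads, 15 hnRNP genes were higher, the medians were 0.12 (Ddx) and 0.0351 (Hnrnp), and those of the hnRNP-type, SR, core spliceosome and rRNA lists 0.0615, 0.0728, 0.0039 and 0.082. Dhx37 (0.0034), Dhx40 (0.0625), Hnrnpa2b1 (0.008) and Hnrnpf (0.0205) turned in sign. Quantile normalization gave a Hnrnp median of 0.0336 and turned Dhx40 (0.0287), Hnrnpa2b1 (0.0342) and Hnrnpf (0.0279). At a mean of at least 5 FPKM, where fewer genes were tested, 12 of 18 Ddx and 4 of 5 Dhx genes were higher, the rRNA list's median was -0.0351, and 2 genes passed as lower. With no filter 0 and with voom 3 genes passed as lower. With 1 library left out, 0 to 1 genes passed as higher and 0 to 12 as lower, 0 to 9 members had an unadjusted p under 0.05, the Ddx median ran from -0.0052 to 0.10 and that of the rRNA list from 0.0024 to 0.0806. In the same runs Ddx28 ran from -0.23 to 0.0466, Ddx6 from -0.0093 to 0.12, Dhx37 from -0.09 to 0.0192, Dhx40 from -0.0587 to 0.0498 and Hnrnpab from -0.0386 to 0.12, where the sign turned. The cause was not tested. Depth limits genes near 0.5 FPKM most: the least-read tested member library held 50 reads.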

Other observations

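Markers of further cell types gave these summed levels, none with a gene that passed. Markers of monocyte-derived macrophages lay at 64.5 to 77.0 FPKM in Flox and 82.1 to 101 FPKM in HKO, with all 4 tested genes higher by mean. Markers of B and plasma cells lay at 74.9 to 92.9 and 106 to 149 FPKM, with all 6 tested genes higher. Sinusoidal endothelial markers lay at 29.5 to 40.4 and 33.0 to 44.0 FPKM, stellate cell and fibroblast markers at 31.5 to 42.9 and 32.4 to 48.7 FPKM, and cholangiocyte markers at 26.0 to 34.4 and 27.7 to 32.4 FPKM. Neutrophil markers lay at 2.40 to 5.88 and 2.50 to 4.16 FPKM with Ly6g at 0 in all 6 libraries, and markers of proliferating cells at 13.2 to 16.9 and 13.5 to 14.6 FPKM.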
